A study of Homo sapiens with 15 samples.

Results

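The interleukin-1 family was described here through 10 genes of MCF-10A cells, out of 60721 genes in the deposited tables. They are the ligands IL1A, IL1B, IL18, IL33 and IL36G, the receptor antagonists IL1RN and IL36RN, the receptor IL1R1, the decoy receptor IL1R2, and the shared co-receptor IL1RAP. The genes were chosen by name, with the high level of IL1B in empty-vector cells already known. Their values against the empty vector are therefore a description without a test.

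Interleukin-1 ligands bind IL1R1, which recruits IL1RAP and signals through MYD88, IRAK kinases and TRAF6 to NF-kB and MAP kinases. IL1RN occupies IL1R1 without signalling, and IL1R2 binds ligand but lacks the signalling domain. Epithelial cells are known to store IL-1 alpha, IL-18 and IL-33 and to release them on damage, whereas IL-1 beta and IL-18 are made as precursors that caspase-1 can cut in an inflammasome. The targets of the pathway include chemokines, ICAM1 and acute-phase proteins such as SAA1.

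MCF-10A is an established, non-tumorigenic human mammary epithelial line. Poly(A) RNA was sequenced from 15 libraries, with 3 biological replicates for each of 5 genotypes. These were parental cells, cells with an empty vector (EV), and lines carrying NF1 guide RNA 1 (NF1-g1), guide RNA 2 (NF1-g2) or both guides (NF1-g1/g2), named guide 1, guide 2, and guides 1 and 2 below. NF1 encodes neurofibromin, which lowers RAS activity. All 5 groups were untreated and shared a medium with horse serum, EGF, hydrocortisone, cholera toxin and insulin. The labels do not say what the empty vector carries, or whether an edited line is a clone or a pool. They also do not say how the replicates were grown, so p-values measure the spread between these libraries, which may be partly technical.

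Library totals lay between 46129559 and 78976917 counts, with a median of 55942785. Levels are given as CPM, counts scaled to a common library total, and 3 counts, taken as the smallest detectable level, correspond to 0.038 to 0.065 CPM. NF1 RNA was at 26.0 to 51.3 CPM in the 9 edited libraries and at 115 to 159 CPM in the 6 unedited ones. The libraries did not carry the markers of a mammary epithelial line equally. CDH1, which encodes E-cadherin, was at 0.0191 to 0.158 CPM in the 3 guide 1 libraries and at 0.0361 and 0.0434 CPM in guide 2 replicates 1 and 3, that is, near or under the detectable level. It was at 91.4 CPM in guide 2 replicate 2, and at 1.79 CPM in parental replicate 2 against 42.9 and 37.8 CPM in the other parental libraries. TP63, a basal epithelial factor, was likewise at 0.0542 and 0.0723 CPM in guide 2 replicates 1 and 3 and at 75.8 CPM in replicate 2. Guide 2 replicate 2 thus stood apart from its group, and the main group means, counts and differences that it moves are also given without it.

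IL1A and IL1B lie on the minus strand of chromosome 2 with 45160 bases between them (GENCODE 29, GRCh38). IL1A spans chr2:112773915-112784590 and IL1B chr2:112829751-112836903. Because these neighbours had different patterns in the empty-vector cells, the 250 bases before each start are shown from RefSeq (GRCh38.p14), 5′ to 3′ on the minus strand. For IL1A, which has 2 annotated starts, the window of the upstream start is chr2:112784494-112784743, and the IL1B window is chr2:112836780-112837029.
IL1A: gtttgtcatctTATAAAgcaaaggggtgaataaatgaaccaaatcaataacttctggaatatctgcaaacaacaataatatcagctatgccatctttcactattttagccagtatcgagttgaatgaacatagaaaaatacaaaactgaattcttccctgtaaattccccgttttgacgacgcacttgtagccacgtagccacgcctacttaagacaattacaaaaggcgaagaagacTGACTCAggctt
IL1B: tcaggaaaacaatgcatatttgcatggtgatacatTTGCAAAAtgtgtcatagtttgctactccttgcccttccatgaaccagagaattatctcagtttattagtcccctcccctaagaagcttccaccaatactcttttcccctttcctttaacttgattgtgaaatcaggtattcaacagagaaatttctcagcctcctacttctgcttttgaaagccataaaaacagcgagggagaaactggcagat
Capitals mark matches to 4 motifs searched on both strands: AP-1 as TGANTCA, C/EBP as TTGCNNAA, NF-kB as GGGAA, 3 free bases and CC and a TATA box as TATAAA. The RefSeq starts used here lie inside the GENCODE spans given above, so both printed windows lie partly within those spans. The printed IL1A window held TGACTCA, which begins 12 bases before the start, and TATAAA 239 bases before it. The window of the other IL1A start overlaps the printed one and held 2 AP-1 matches, including that same TGACTCA, and no TATAAA. The IL1B window held TTGCAAAA, a C/EBP match, 215 bases before the start. Of 35116 RefSeq windows of this length, 6.57% held the AP-1 letters, 9.05% the C/EBP letters, 6.02% the NF-kB letters and 10.7% TATAAA. A match describes the letters only. RefSeq windows were matched for 9 of the 10 members, and IL18 is the one without.

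IL1A, the precursor of IL-1 alpha, ranged from 6.90 to 185 CPM over the 15 libraries. Parental replicates 1, 2 and 3 had 99.3, 8.13 and 40.2 CPM, and the empty-vector replicates 83.2, 71.5 and 117 CPM. In guide 1 the values were 12.7, 10.1 and 6.90 CPM, and in guides 1 and 2 they were 21.1, 21.4 and 19.8 CPM. Guide 2 gave 9.27, 185 and 7.99 CPM, so both the highest value of the series and values near the lowest came from this genotype. By mean, the order was empty vector, guide 2, parental, guides 1 and 2, and guide 1, and only the last neighbours in that order did not overlap. Without guide 2 replicate 2 the guide 2 mean was 8.63 CPM instead of 67.4, and guide 2 came last in the order, after guide 1. In bulk RNA, fewer cells that express a gene and less of its RNA per cell cannot be told apart.

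IL1B, the precursor of IL-1 beta, was high in the empty-vector cells alone. These had 35.9, 32.6 and 75.1 CPM in replicates 1, 2 and 3, while the other 12 libraries lay between 1.03 and 10.2 CPM. Parental cells had 4.54, 1.13 and 4.07 CPM, guide 1 had 2.64, 1.68 and 1.03 CPM, and guides 1 and 2 had 3.08, 3.16 and 3.16 CPM. Guide 2 again spread widely, with 1.82 and 1.24 CPM in replicates 1 and 3 and 10.2 CPM in replicate 2. The empty-vector group was separate from guide 2, its nearest neighbour by mean, although the guide 2 mean fell from 4.43 to 1.53 CPM, the lowest, when replicate 2 was left out.

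Relative to IL1A, IL1B also set the empty vector apart. IL1B counts were 43.2%, 45.6% and 64.4% of IL1A counts in the empty-vector libraries and 4.57% to 20.8% in the other 12. The lowest share came from parental replicate 1, where IL1A was at 99.3 CPM. Guide 2 replicate 2 had the highest IL1A level of the series, with IL1B at 5.53% of it. High IL1A thus occurred both with and without high IL1B, and these shares, which include the value the genes were chosen on, were not tested.

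**Figure D1:**
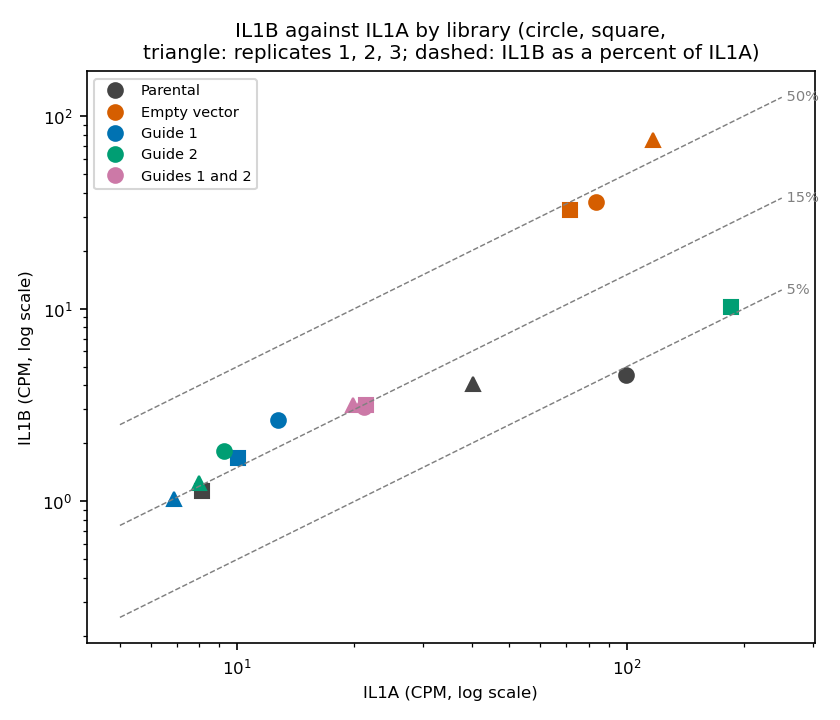
IL1B against IL1A in CPM, both axes on a log scale, with 1 point per library, colour for genotype and shape for replicate. The 3 empty-vector libraries lie near the 50% line, and the other 12 lie between 4.57% and 20.8%.

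IL1RN, which encodes the interleukin-1 receptor antagonist, was scarce. Parental cells had 17, 6 and 58 counts (0.298, 0.0940 and 1.26 CPM) and empty-vector cells 30, 25 and 107 counts (0.525, 0.461 and 2.00 CPM). Guide 1 had 2, 1 and 2 counts, and guides 1 and 2 had 7, 7 and 3 counts. In guide 2 there were 0 counts in replicate 1, 78 in replicate 2 and 2 in replicate 3. Guide 1 was therefore at or under the detectable level in all 3 libraries, below every parental library.

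IL18 had the highest genotype means per length among the ligands, IL1A being higher in 1 library, guide 2 replicate 2 (87.1 against 78.1 CPM per kb). The IL18 mean per kilobase of exon ran from 54.4 (parental) to 86.8 CPM per kb (guide 1), against 4.65 to 42.6 for IL1A and 0.577 to 15.5 for IL1B. Parental replicates had 154, 135 and 140 CPM and were the lowest 3 libraries of the series. Empty-vector cells had 214, 199 and 185 CPM, guide 1 had 264, 255 and 165 CPM, guide 2 had 202, 205 and 209 CPM, and guides 1 and 2 had 178, 174 and 160 CPM. No edited or empty-vector library fell into the parental range. Unlike IL1A and IL1B, IL18 was even across guide 2, where replicate 2 stood at 0.998 times the mean of the other two.

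IL33, an alarmin held in the nucleus, was low throughout. Counts were 4, 5 and 3 in parental cells, 23, 5 and 9 in empty-vector cells, 16, 29 and 14 in guide 1, 7, 2 and 8 in guide 2, and 10, 8 and 30 in guides 1 and 2. In CPM the range was 0.0362 to 0.536, and both guide 1 and guides 1 and 2 lay above all parental libraries. No neighbours in the order of the 5 group means were separate.

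The interleukin-36 genes were at or near the detectable level. IL36G, the agonist, had at most 6 counts in any library and 0 in 4 of them. IL36RN, the antagonist, had 2 counts in guide 2 replicate 2 and 0 in the other 14 libraries, and 0 counts allow a level of up to the 0.038 to 0.065 CPM given above. Both were too low to be tested, so 8 of the 10 genes entered the tests.

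IL1R1, the signalling receptor, had genotype means of 69.9 to 82.5 CPM. The parental values were 52.4, 93.4 and 65.7 CPM, and the empty-vector values 78.6, 78.7 and 54.7 CPM. Guide 1 had 87.2, 89.8 and 70.4 CPM, and guides 1 and 2 had 73.9, 74.6 and 76.4 CPM. In guide 2 replicate 2 it was 22.9 CPM, the lowest of the series, against 91.9 and 95.0 CPM in replicates 1 and 3. The guide 2 mean, the lowest of the 5 genotypes, was therefore 93.4 CPM without replicate 2, the highest. The ligand IL1A and its receptor thus stood at opposite ends in that library.

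IL1RAP, the co-receptor, followed the order of IL1A across the genotype means, with and without guide 2 replicate 2. It had 48.1, 20.9 and 38.4 CPM in parental, 47.9, 43.5 and 62.1 CPM in empty-vector, and 19.2, 16.2 and 24.4 CPM in guide 1 cells. Guide 2 had 19.0, 72.1 and 19.4 CPM and guides 1 and 2 had 32.5, 35.3 and 30.7 CPM. The decoy IL1R2 was low, at 3.00, 0.862 and 0.628 CPM in parental and 1.33, 1.27 and 1.87 CPM in empty-vector cells. It was at 0.498, 0.570 and 0.364 CPM in guide 1, 0.867, 2.61 and 0.925 CPM in guide 2, and 0.715, 0.677 and 0.554 CPM in guides 1 and 2. All guide 1 libraries lay below all parental ones for IL1R2, whereas IL1RAP overlapped. Per kilobase, IL1R1 (9.87 to 11.6 CPM per kb by mean) exceeded IL1RAP (1.72 to 4.43) and IL1R2 (0.155 to 0.487) in every genotype.

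**Figure D2:**
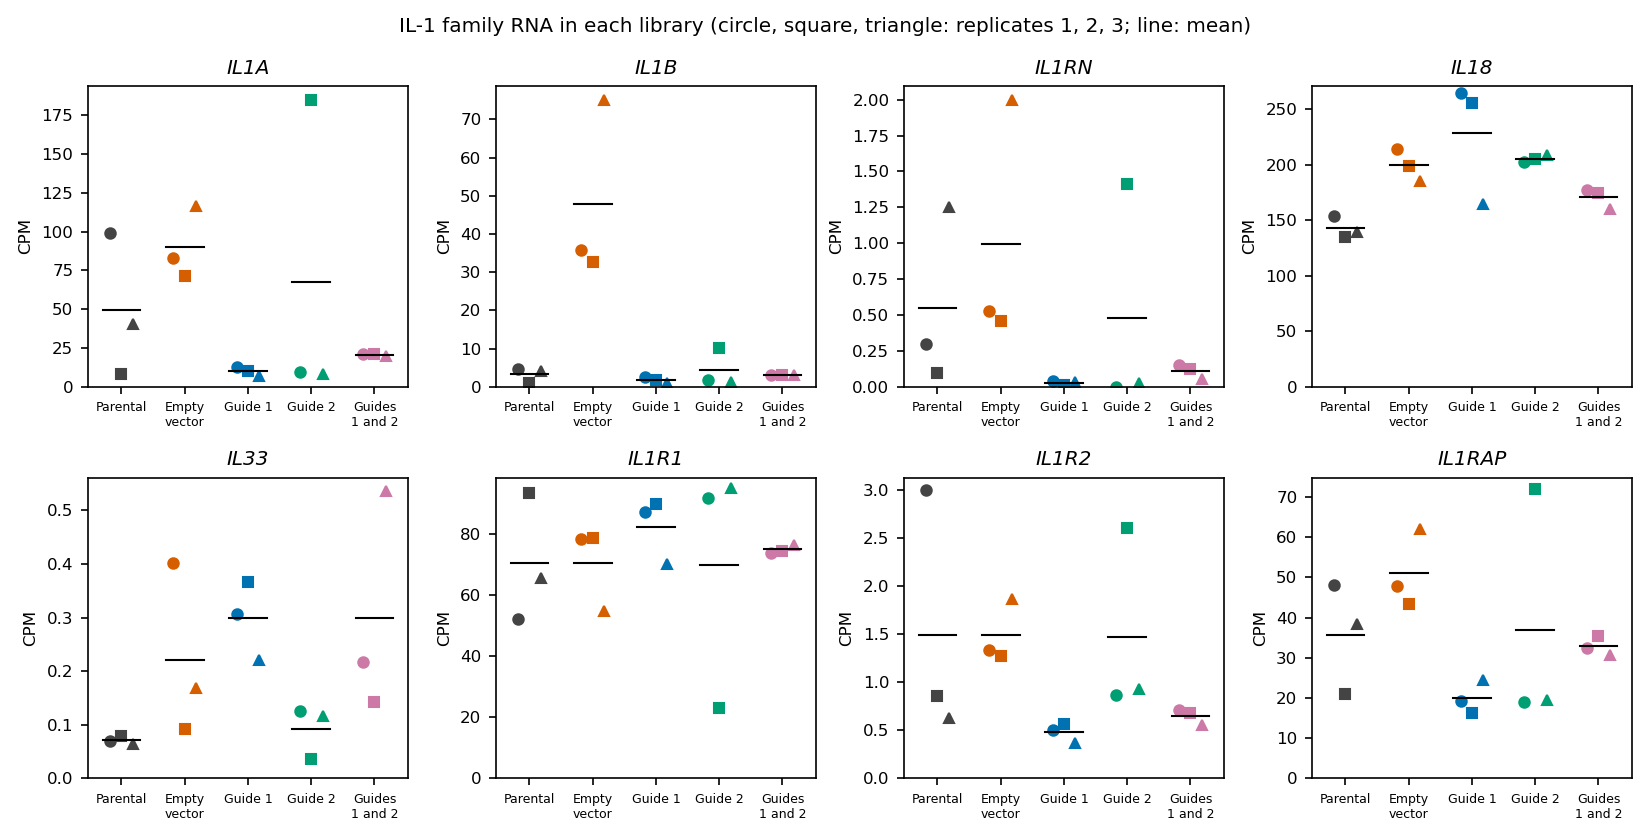
CPM of the 8 tested family genes in each library, with circles, squares and triangles for replicates 1, 2 and 3 and a line at each group mean; each panel has its own linear axis from 0. IL1B stands at 32.6 to 75.1 CPM in the empty-vector libraries, guide 2 replicate 2 is far from its group for IL1A, IL1R1 and IL1RAP, and IL18 is lowest in parental cells.

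Comparisons without the empty vector asked whether editing of NF1 went with other levels of these genes than in parental cells. In edgeR's quasi-likelihood test over 17457 genes, with a call at a Benjamini-Hochberg adjusted p under 0.05, none of the 8 genes was called in guide 1, guide 2, guides 1 and 2, or their mean against parental. Few genes of any kind were called there, namely 0.149%, 0.0516%, 0.195% and 0.166% of those tested, in that order. The unadjusted p was below 0.05 for 5, 1, 2 and 3 of the 8. The share of all genes at that unadjusted threshold was not computed, so nothing is read from these counts. DESeq2 called 1 of the 8, IL18, in guide 1 and in the mean of the edited lines, and 0 in the other two, but it called more genes of any kind as well (4.09%, 0.841%, 2.11% and 2.28% in the same order).

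The differences of guide 1 from parental are given on the log2 scale with their standard errors. IL18 had 0.70 (SE 0.140, adjusted p = 0.0739). IL33 had 2.05 (SE 0.642, adjusted p = 0.175), from a few counts. The agonist IL1A had −2.30 (SE 1.04, adjusted p = 0.246), and IL1B had −0.84 (SE 0.717, adjusted p = 0.489). For the antagonist IL1RN the value was −4.23 (SE 1.67, adjusted p = 0.216) and for the decoy IL1R2 it was −1.63 (SE 0.560, adjusted p = 0.191). IL1RAP had −0.83 (SE 0.441, adjusted p = 0.294) and IL1R1 had 0.25 (SE 0.385, adjusted p = 0.715). Although IL1B lay in the same direction as IL1A, its difference was about the size of its error.

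Guide 2 replicate 2 belongs to neither group of that comparison but enters the estimate of spread that all groups share. Without it, 6 of the 8 genes were called in guide 1 against parental, beside 14.5% of all genes tested. The standard errors were then 0.587 (IL1A), 0.476 (IL1B), 1.11 (IL1RN), 0.614 (IL33), 0.469 (IL1R2), 0.238 (IL1RAP) and 0.179 (IL1R1), all smaller than above. That of IL18 was 0.141 and not smaller. Why more genes were called was not tested. IL1A fell (−2.30, adjusted p = 0.0254), as did IL1RN (−4.22, adjusted p = 0.0280), IL1R2 (−1.62, adjusted p = 0.0379) and IL1RAP (−0.83, adjusted p = 0.0377). IL18 rose (0.70, adjusted p = 0.00970), and so did IL33 (2.06, adjusted p = 0.0417). IL1B and IL1R1 were not called. For the averaged edited lines against parental, leaving out that library gave 4 calls beside 13.1% of all genes, with IL1A at −2.01, IL1RN at −3.78, IL1R2 at −1.19 and IL18 at 0.50. In guide 2 and in guides 1 and 2 against parental it left 0 of 8 called, beside 5.96% and 2.62% of all genes. The IL1A difference of guide 2 from parental nevertheless changed from 0.45 (adjusted p = 0.975) to −2.50 (adjusted p = 0.0508) when that library was left out. Without guide 1 replicate 3, the call was IL18 alone in guide 1 (7.64% of genes called), guide 2 (0.078%) and the mean (1.91%).

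**Figure D3:**
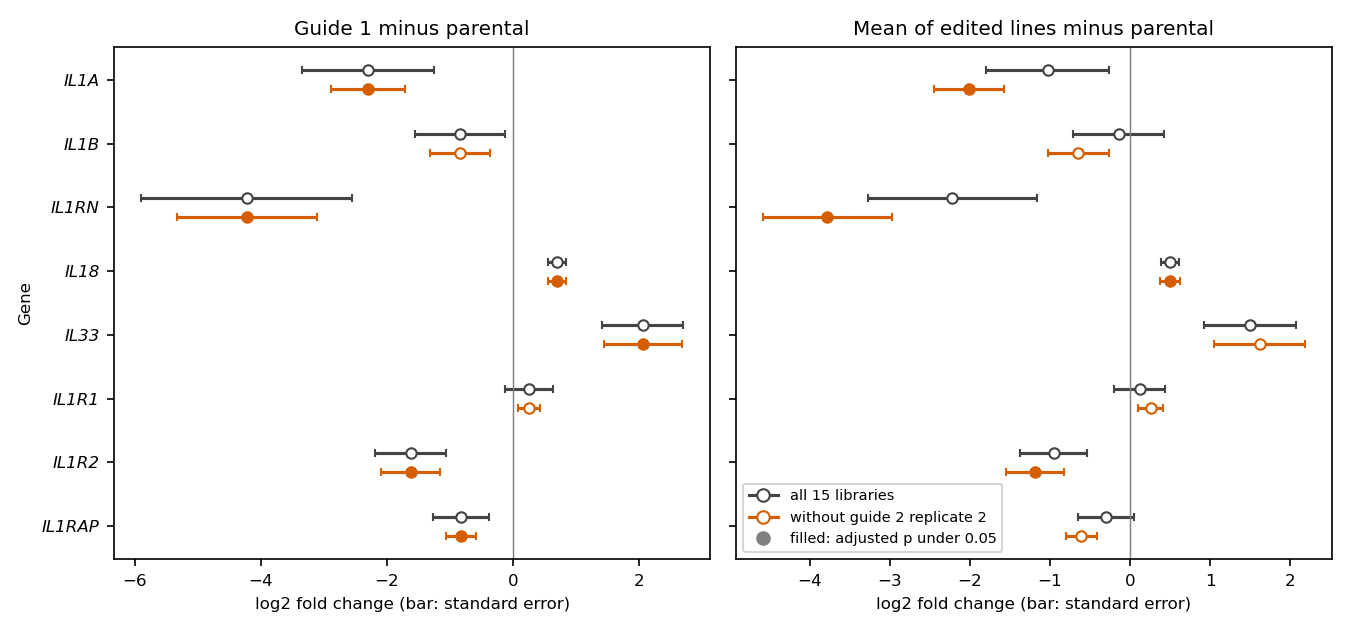
Log2 fold changes of the 8 tested genes for guide 1 (left) and the mean of the edited lines (right) against parental cells, with bars for 1 standard error, in all 15 libraries (grey) and without guide 2 replicate 2 (orange); filled points have an adjusted p under 0.05. No grey point is filled, and 6 orange points on the left and 4 on the right are.

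Without regard to the model, libraries of guide 1 and parental did not overlap for 4 of the 8 genes, with IL18 and IL33 above and IL1RN and IL1R2 below, where 24.0% of tested genes did not overlap. Guide 2 was separate from parental for IL18 only (1 of 8, against 9.38% of genes), and without replicate 2 also for IL33 above and IL1RN and IL1RAP below (4 of 8, against 41.3%). Guides 1 and 2 lay above parental for IL18 and IL33 (2 of 8, against 23.1%). IL18 is thus the gene for which every edited line lay above parental cells in all 3 libraries. Its log2 differences from parental were 0.70, 0.54 and 0.26 for guide 1, guide 2, and guides 1 and 2, and 0.50 for their mean (adjusted p = 0.0739, 0.304, 0.568 and 0.121). The empty-vector libraries, which carry unedited NF1, also lay above parental cells for IL18.

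Between the edited lines, 0 of the 8 genes were called in guide 1 against guide 2 (0.0401% of genes called), guides 1 and 2 against guide 1 (0.275%), or guides 1 and 2 against guide 2 (0.149%). The unadjusted p was under 0.05 for 4, 1 and 1 of them, which has no share of all genes beside it and is not read further. DESeq2 called none (1.17%, 2.34% and 0.861% of genes). There were again 0 calls of 8 without guide 2 replicate 2, beside 0.162%, 4.55% and 1.83%. Libraries of guides 1 and 2 lay above those of guide 1 for IL1A, IL1B, IL1RN and IL1RAP (4 of 8, against 28.8% of genes in either direction). For IL1A the medians of these 2 lines were 21.1 and 10.1 CPM, and the log2 difference was 1.06 (SE 1.01, adjusted p = 0.652). Guide 1 was separate from guide 2 for 2 of 8 genes, IL33 above and IL1R2 below (12.7% of genes), and guides 1 and 2 from guide 2 for 3 of 8, IL33 above and IL18 and IL1R2 below (10.4%). These counts were 3 of 8 (24.4%) and 8 of 8 (43.1%) without guide 2 replicate 2. With only guides 1 and 2 and guide 1 in the fit, IL1A and IL1RAP were called, beside 7.67% of genes. Without guide 1 replicate 3, IL18 was called higher in guide 1 than in guide 2 (log2 0.35, adjusted p = 0.0285, beside 3.31% of genes) and lower in guides 1 and 2 than in guide 1 (log2 −0.62, adjusted p = 0.00142, beside 4.61%).

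Against the empty vector, which the choice of genes used, IL1B was lower in every other genotype. The log2 difference was −3.92 (SE 0.760) in parental, −4.77 (SE 0.794) in guide 1, −3.47 (SE 0.741) in guide 2 and −3.96 (SE 0.761) in guides 1 and 2. Of the 8 genes, 1 was past the threshold in each comparison, IL1B, where 4.37%, 5.88%, 3.94% and 0.962% of all genes were. Leaving out guide 2 replicate 2 put 2, 5, 4 and 3 of the 8 past it, beside 13.9%, 18.1%, 14.5% and 6.7% of all genes. Nothing is read from these counts, since the genes were chosen on this contrast, and all 4 comparisons share the empty-vector libraries. IL1A stood at −0.91 (SE 0.992), −3.21 (SE 1.08), −0.45 (SE 0.985) and −2.15 (SE 1.03) in the same order. Without guide 2 replicate 2 the guide 2 values were −3.42 for IL1A and −5.005 for IL1B. IL1R1 lay between −0.03 and 0.22, and at 0.37 in guide 2 without that library.

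Epithelial markers differed between libraries along with several of these genes. The summed level of 13 epithelial markers was 7339, 2540 and 5197 CPM in parental replicates 1, 2 and 3 and 6364, 6601 and 9723 CPM in the empty-vector ones. It was 2294 to 2762 CPM in guide 1 and 3923 to 4225 CPM in guides 1 and 2. In guide 2 it was 2591 and 2619 CPM in replicates 1 and 3 but 12669 CPM in replicate 2. The library highest in its genotype for the mean log2 level of these markers was also the highest for IL1R2 in 5 of 5 genotypes, and for IL1A, IL1B, IL1RN and IL1RAP in 3 of 5. For IL18 it was so in 2 of 5, and for IL33 and IL1R1 in 1 of 5. IL36G and IL36RN, with at most 6 counts, also gave 3 of 5. It was the lowest for IL1R1 in 4 of 5, and for IL1B, IL1RN, IL18, IL33 and IL1RAP in 1 of 5 each. The share over all genes was not computed, so a match in 3 of 5 is not read further.

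Within guide 2, where genotype is constant, replicate 2 exceeded the mean of replicates 1 and 3 by 21.4-fold for IL1A, 6.66-fold for IL1B, 3.76-fold for IL1RAP and 2.91-fold for IL1R2. IL1R1 was 4.07-fold lower there. KRT14, a basal keratin, was 63.3-fold higher, EPCAM 38.8-fold and KRT5 6.66-fold higher. The acute-phase gene SAA1, a target of the pathway, was 11.6-fold higher. Other targets went either way in that library. The chemokine gene CXCL2 was at 7.99 CPM, above every other edited library (at most 2.97 CPM). The chemokine gene CCL20 at 6.72 CPM and ICAM1 at 4.205 CPM lay below every other edited library (at least 18.7 and 6.49 CPM). The part of the epithelial markers in the differences between genotypes was not tested.

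**Figure D4:**
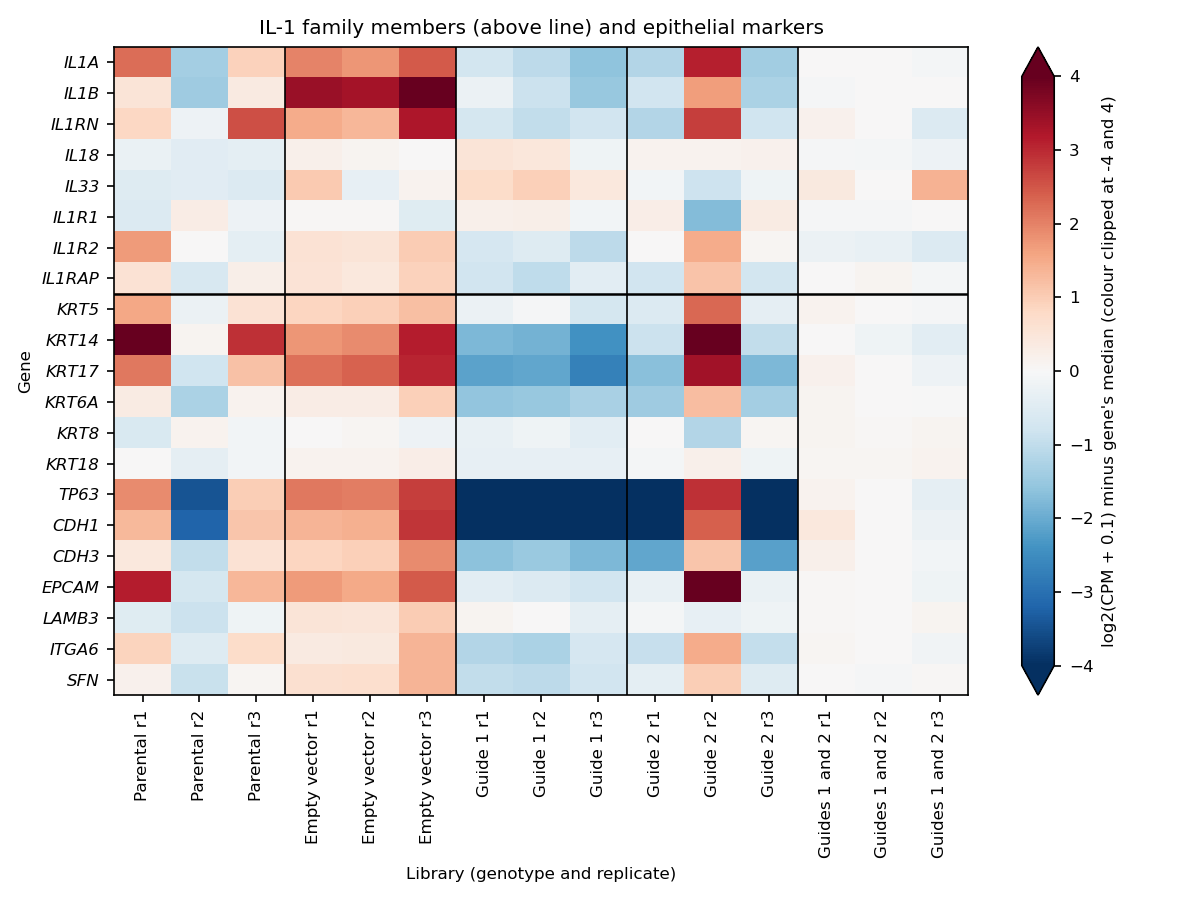
Log2(CPM + 0.1) of 8 family genes (above the line) and 13 epithelial markers (below) in each library, minus the gene's median over the 15 libraries, with colours clipped at −4 and 4. Guide 2 replicate 2 is red for IL1A, KRT14, TP63 and CDH1 and blue for IL1R1, unlike the other guide 2 libraries, and IL1B is darkest in the empty-vector libraries.

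Markers of cells that could be another source of these RNAs were mostly low. The 12 myeloid markers summed to 6.35 to 10.0 CPM in parental, 13.2 to 16.4 in empty-vector, 6.31 to 10.3 in guide 1, 7.29 to 7.95 in guide 2 and 12.2 to 13.2 CPM in guides 1 and 2 cells. Of these, 6 (PTPRC, TYROBP, AIF1, LYZ, CD163 and MRC1) had at most 3 counts in every library, and TYROBP and AIF1 had 0. Only CD14 and CSF1R passed 1 CPM anywhere. The 9 fibroblast markers summed to 150 to 205 CPM in parental, 215 to 226 in empty-vector, 492 to 1153 in guide 1, 97.3 to 445 in guide 2 and 275 to 305 CPM in guides 1 and 2 cells. In guide 1 most of the sum came from DCN, at 432 to 1095 CPM. Of 6 tested, guide 1 lay above all parental libraries for 2 (DCN and LUM) and below for 2 (COL1A1 and COL1A2). Of all tested genes, 24.0% did not overlap there. FAP was at 35.0 to 112 CPM in the 15 libraries, and LUM at no more than 1.54 CPM. COL3A1 had at most 3 counts everywhere. The collagen gene COL1A2, with at most 35 counts in a library, fell in the averaged edited lines relative to parental cells (log2 −2.37, SE 0.270, adjusted p = 0.00241). The 4 endothelial markers summed to 2.42 to 12.7 CPM, with CDH5 at most at 3 counts.

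Among 12 other ligands and receptors of the family, IL36A, IL36B, IL37 and IL1F10 were at most at 0.130 CPM. None of the 6 tested receptors and binding proteins was called in any of the 7 comparisons without the empty vector. IL1RL1, the receptor of IL-33, was the most abundant of them. It had 7.96, 7.08 and 5.11 CPM in parental, 22.4, 23.0 and 14.8 CPM in empty-vector and 44.6, 53.7 and 12.4 CPM in guide 1 cells. Guide 2 had 40.1, 8.28 and 49.7 CPM and guides 1 and 2 had 13.1, 12.6 and 12.3 CPM. Like IL18, it was above the parental range in all edited and empty-vector libraries, and guide 1 differed from parental by 2.48 (SE 0.583, adjusted p = 0.105), a difference that was called without guide 2 replicate 2 (adjusted p = 0.00335) or guide 1 replicate 3 (adjusted p = 0.00716). Without guide 2 replicate 2, IL1RL1 was the 1 receptor of the 6 that was called, also higher in guide 2 and in the mean than in parental cells and lower in guides 1 and 2 than in either single guide. Of all genes, 5.96% and 13.1% were called there in guide 2 and the mean against parental cells. Guides 1 and 2 gave 4.55% against guide 1 and 1.83% against guide 2. SIGIRR, an inhibitory receptor, stayed at 3.97 to 8.46 CPM, IL18R1 at 2.75 to 7.52 and IL18BP, which binds IL-18, at 2.03 to 3.90 CPM.

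For processing and release, 13 of 15 listed genes were tested. PYCARD, the adaptor of inflammasomes, was the only one called without the empty vector. It had 0.316, 0.266 and 0.238 CPM in parental cells and 0 counts in all 3 guide 1 libraries, at least 5.74-fold lower when 3 counts per library are taken as the floor. Its fall was called in guide 1 (adjusted p = 0.0278) and in the mean of the edited lines (log2 −3.67, SE 0.529, adjusted p = 0.0185). The guide 1 call was lost without empty-vector replicate 1, guide 1 replicate 1 or 2, guides 1 and 2 replicate 1 or 2, or parental replicate 2 or 3, with adjusted p up to 0.150, and with only these 2 groups in the fit (adjusted p = 0.0566). PYCARD was again the 1 gene called of the 13 without guide 2 replicate 2, also lower in guide 2 than in parental cells (adjusted p = 0.0280). Of all genes, 14.5% were called in guide 1 and 5.96% in guide 2 in that fit. The call in the mean was lost without parental replicate 2 or 3 (adjusted p = 0.108 and 0.0786). In empty-vector cells PYCARD was at 1.24, 0.903 and 1.49 CPM, above every other library. CASP1, the protease that cuts IL-1 beta and IL-18, stayed at 14.004 to 19.8 CPM, CASP4 at 53.7 to 72.9 and CASP8 at 38.4 to 48.7 CPM. The median log2 difference of the 13 genes in guide 1 against parental was 0.03, beside −0.01 over all genes.

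Of 18 tested genes of the signalling chain below the receptor, 0 were called in any comparison without the empty vector, with a median of −0.09 in guide 1 against parental. Against the empty vector 1 was past the threshold and lower in parental, 2 in guide 1, 2 in guide 2 and 0 in guides 1 and 2. Of all genes, 2.84%, 4.57%, 2.73% and 0.693% were lower there, in the same order. Without guide 2 replicate 2, IKBKG, a regulatory subunit of the IkB kinase, was called higher than in parental cells in each edited line and in their mean. NFKB1 was then called lower in guide 1 and in the mean, and IRAK2 lower in guide 2. Of all genes, 14.5%, 5.96%, 2.62% and 13.1% were called there in guide 1, guide 2, guides 1 and 2, and the mean. IRAK1, a kinase recruited by MYD88, was at 175 to 249 CPM in the 15 libraries, UBE2N, which supplies ubiquitin with TRAF6, at 127 to 164 CPM, and MAPK14, which encodes p38 alpha, at 91.9 to 118 CPM. TAB2, an adaptor of the TAK1 kinase, was at 109 to 122 CPM in empty-vector and at 79.9 to 96.6 CPM in the other libraries.

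Of 19 tested genes known to respond to IL-1, 2 were past the threshold and lower in parental, 8 in guide 1, 4 in guide 2 and 3 in guides 1 and 2 against the empty vector, where 2.84%, 4.57%, 2.73% and 0.693% of all genes were lower. The medians were −0.91, −1.35, −0.87 and −1.05, beside 0.01, 0.02, 0.03 and 0.00 over all genes. Without guide 2 replicate 2, of 20 tested, 4, 16, 14 and 7 were past the threshold and lower, beside 8.68%, 11.7%, 9.42% and 4.99% of all genes. Against parental cells 0 of 19 were called in any edited line, and the medians were −0.69 (guide 1), −0.31 (guide 2) and −0.31 (guides 1 and 2). Leaving out guide 2 replicate 2 gave 5 lower and 2 higher of 20 in guide 1, 3 lower and 1 higher in guide 2, and 1 lower and 3 higher in guides 1 and 2. Of all genes, 14.5%, 5.96% and 2.62% were called in either direction there, in the same order. In that fit BIRC3 was lower and CCL20 was higher in all 3 lines, and ICAM1 was higher in guide 1 and in guides 1 and 2. Because the empty-vector level of IL1B was known when the genes were chosen, the counts against the empty vector are a description.

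ICAM1, an adhesion molecule, was the 1 responsive gene called without the empty vector in all 15 libraries. Parental cells had 10.6, 9.31 and 6.78 CPM, empty-vector cells 27.1, 25.9 and 30.5, guide 1 cells 13.7, 12.8 and 12.98, guide 2 cells 6.49, 4.205 and 7.08, and cells with guides 1 and 2 14.6, 13.5 and 14.6 CPM. It was higher in guides 1 and 2 than in guide 2 (log2 1.25, SE 0.190, adjusted p = 0.0260). That call was lost without empty-vector replicate 1 or 2, guide 2 replicate 1 or 3, or any replicate of guides 1 and 2 (adjusted p up to 0.132), and with only these 2 groups in the fit (adjusted p = 0.412). The most abundant responsive genes were BIRC3, an inhibitor of apoptosis, at 45.4 to 165 CPM, the chemokines CXCL1 at 33.2 to 183 and CXCL8 at 23.0 to 126 CPM, and the NF-kB inhibitor NFKBIA at 53.2 to 86.2 CPM. CXCL1 was highest in parental replicate 1, the parental library with the most IL1A. In guide 2 replicate 2, the library with the most IL1A of the series, CXCL1 was at 69.7 CPM. SAA1 was at 84.9 CPM in guide 2 replicate 2 and 79.01 CPM in empty-vector replicate 3, and at 6.59 to 42.0 CPM elsewhere.

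**Figure D5:**
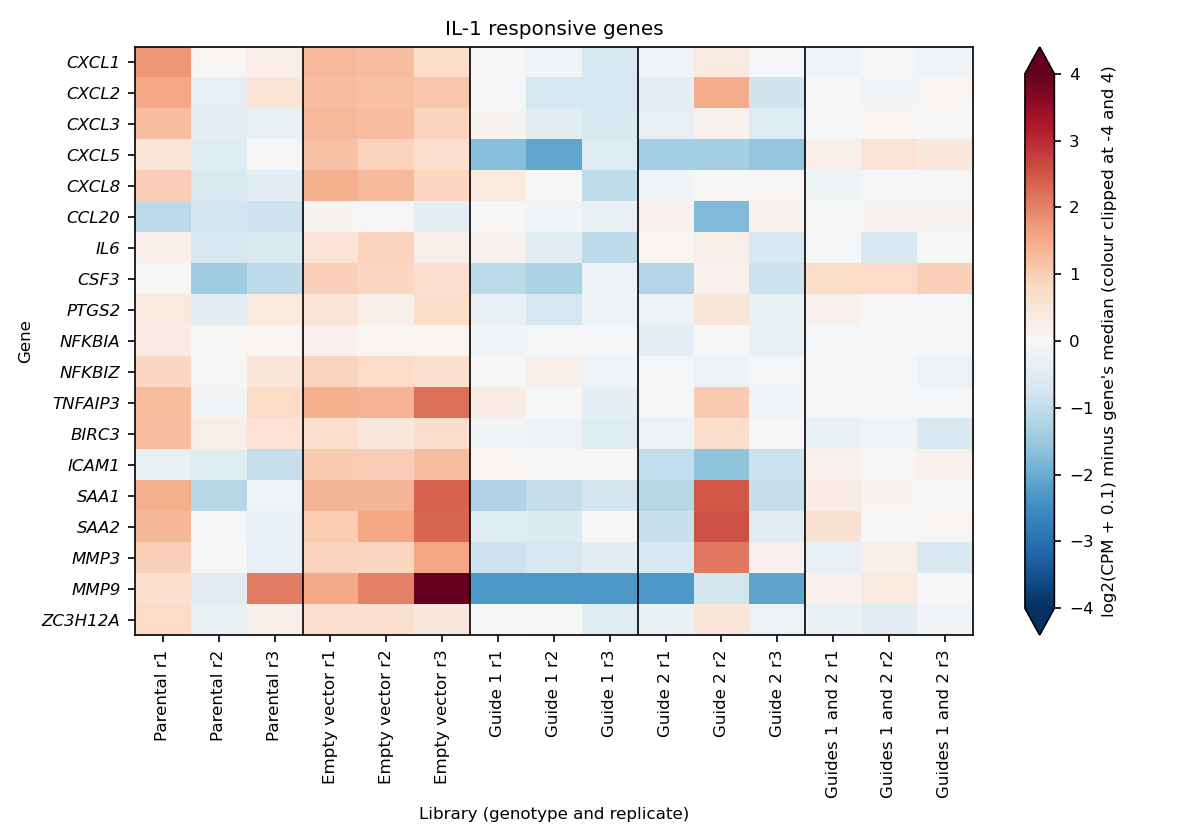
Log2(CPM + 0.1) of 19 tested IL-1 responsive genes in each library, minus the gene's median over the 15 libraries, with colours clipped at −4 and 4. The 3 empty-vector columns are the most uniformly red, and parental replicate 1 is red for CXCL1 and CXCL2. Guide 2 replicate 2 is red for SAA1, SAA2 and MMP3 and blue for CCL20 and ICAM1.

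Genes beside the ligand and receptor clusters on chromosome 2 gave 0 calls in any comparison without the empty vector, of 7 tested near the ligands and 6 near the receptors. Guide 1 against parental gave 3 and 2 calls without guide 2 replicate 2, beside the 14.5% of all genes given above. SLC20A1, a phosphate transporter near the ligands, was at 819 to 1067 CPM in empty-vector and 584 to 676 CPM in parental cells. TTL, a tubulin ligase gene there, was at 122 to 158 CPM in all 15 libraries. MAP4K4, a kinase gene beside the receptors, was at 387 to 614 CPM. None of these ranges spans as many fold as IL1A or IL1B. The receptor genes IL1R2 (chr2:101991844-102028544) and IL1R1 (chr2:102064544-102179874), both on the plus strand and 35999 bases apart, differed from each other in guide 2 replicate 2, as described above.

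By Pearson correlation of log2 CPM over the 15 libraries, the genes most like IL1B were KLF7 (0.983), ITGA2 (0.980), PREP (0.974), SPRED2 (0.972) and MAPK6 (0.969). Those most like IL1A were HR (0.985), KDM7A (0.979), P3H2 (0.979), DAAM1 (0.976) and TPD52L1 (0.976). No gene was on both lists. IL33, with few counts, reached at most 0.842 (PSMB4). ITGA2, which encodes an integrin, had a mean of 234 CPM in empty-vector cells and 65.8 to 97.5 CPM in the other genotypes, and HR had 36.1 and 36.3 CPM in empty-vector and guide 2 cells against 5.68 CPM in guide 1. The guide 2 mean of HR was 6.08 CPM without replicate 2. These values describe likeness over shared libraries and carry no test.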

How the data were processed

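RNA-seq of 15 untreated MCF-10A libraries was analysed from whole-number counts per gene deposited by the authors. The authors also deposited CPM, which equal counts scaled by the library total within 4.91e-11. Reads were trimmed with Trim Galore 0.6.0 and aligned with STAR 2.7.8a to GRCh38, per the submitters' processing notes. The counting program, annotation and use of strand are not given in the sources used here. RNA was prepared with RNeasy columns and a KAPA mRNA HyperPrep kit, per the labels' protocols. Without known strand use, reads of IL18, IL1R1, IL1RAP and IL36G cannot be told from those of genes that overlap them, which reached at most 0.16 CPM for the first 3.

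Counts were tested with edgeR 4.0.16 in R 4.3.3: TMM scaling (factors 0.973 to 1.02), filterByExpr by genotype (17457 genes kept), 1 quasi-likelihood group-means model over all 15 libraries with 10 residual degrees of freedom, and two-sided p-values adjusted by Benjamini-Hochberg over all tested genes. Each standard error is the size of the log2 fold change over the square root of F. Alternatives were RLE scaling, no filter, a replicate block, DESeq2 1.42.0, only the compared groups in the fit, and each library left out. Group means, list counts and library overlaps without guide 2 replicate 2, and the share of all genes called without it or guide 1 replicate 3, were added after the data were seen. In simulated counts for guide 1 minus parental with 200 genes changed 2-fold and 17168 tested, 77.5% were recovered and 3.7% of calls were false. The changed genes had an average log2 CPM above 1, and apart from them all groups shared the same means. No simulated library stood apart as guide 2 replicate 2 does. IL1RN, IL33 and IL1R2 lie under that level, so the recovered share does not describe them or the power of the real fit. PCR reads lacking molecular identifiers may be copies of 1 molecule, so floors of 3 counts reflect counting error alone.

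The members, gene lists and tests were chosen with earlier results of these data known. Named genes are the members, list genes called without the empty vector, up to 4 per list with the highest mean CPM, NF1, and the 5 genes most correlated (prior count 2, average log2 CPM of at least 1) with IL1A, IL1B and IL33. IL36G was too low for this. Other named genes (such as CASP1, PYCARD in empty-vector cells, SAA1, KRT14, TP63, CDH1 and EPCAM) were picked after their values were seen. Symbols were found for 60357 of 60721 identifiers, and 58503 have a GENCODE 29 record. No library equals another.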

Additional observations from a re-analysis of the deposited data

Results flagged for a closer look

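Differences between edited lines, rather than from the controls, were looked at again for the genes named above. NF1 differed between guides: guide 1 was higher than guide 2 (log2 0.69, SE 0.088, adjusted p = 0.0121) and guides 1 and 2 were lower than guide 1 (log2 −0.77, SE 0.0882, adjusted p = 0.00411). ICAM1 was higher in guides 1 and 2 than in guide 2 (log2 1.25, adjusted p = 0.0260), with 13.5 to 14.6 CPM in 3 libraries against 4.205 to 7.08 CPM in 3. LUM, a fibroblast marker that encodes lumican, was lower in guides 1 and 2 (0.0891 to 0.232 CPM) than in guide 1 (1.08 to 1.54 CPM), with a log2 difference of −2.97 and an adjusted p of 0.0415, which reached 0.249 when single libraries were left out. None of these 3 genes is a member of the interleukin-1 family.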

How the results depend on the processing

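The count of family genes called was 0 of 8 in all 7 comparisons under RLE scaling. Leaving out single libraries gave 0 to 6 in guide 1 minus parental, 0 to 4 in the mean of the edited lines minus parental, 0 to 1 in guide 2 minus parental, 0 to 1 in guide 1 minus guide 2, 0 to 1 in guides 1 and 2 minus guide 1, and 0 in the other 2. DESeq2 gave 1 in guide 1 minus parental and 1 in the mean, no filter gave 1 in guide 1 minus parental, and only the 2 groups in the fit gave 2 in guides 1 and 2 minus guide 1. Signs changed only when single libraries were left out. IL1A in the mean of the edited lines ran from −2.01 to 0.0114, and IL1R2 in the mean ran from −1.31 to 0.0545, both positive without parental replicate 1, and IL1A in guide 2 minus parental from −2.50 to 1.498, negative without guide 2 replicate 2 or parental replicate 2 (−0.05). Against the empty vector, IL1A in guide 2 ran from −3.42, without guide 2 replicate 2, to 0.0601 and IL1RN in parental from −2.37 to 0.0912, positive without guide 2 replicate 1 or 3 and without empty-vector replicate 3, in that order.

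Over all genes, calls in guide 1 minus parental were 26, but 657 with DESeq2, 84 without a filter, 44 with 2 groups, 9 with the block and 6 to 2591 without single libraries. In the mean they were 29, but 389 with DESeq2, 58 without a filter and 10 to 2336 without single libraries. Guide 2 minus parental had 9 (138 with DESeq2, 17 without a filter, 1 with 2 groups, 2 to 1064 without single libraries), and guides 1 and 2 minus parental 34 (367, 60, 147 and 4 to 467). Guide 1 minus guide 2 had 7 (204, 23, 0 and 2 to 593), guides 1 and 2 minus guide 1 had 48 (384, 82, 1252 and 4 to 827), and guides 1 and 2 minus guide 2 had 26 (150, 51, 2 and 2 to 327). Against the empty vector, DESeq2 and single libraries left out moved 762 to 1604 and 145 to 2484 (parental), 1026 to 1937 and 215 to 3236 (guide 1), 687 to 1373 and 170 to 2581 (guide 2), and 168 to 754 and 21 to 1196 (guides 1 and 2). The highest of each range came without guide 2 replicate 2, except without guide 1 replicate 3 in guide 1 minus guide 2 and guides 1 and 2 minus guide 1. The cause of these shifts was not tested.

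The labels number the replicates, but equal numbers did not deviate together: the mean correlation was −0.05 over 30 pairs (−0.75 to 0.28), against 0.03 over 60 pairs of other numbers. With the replicate number as a block, 0 of 8 family genes were called in each comparison, and calls over all genes became 9, 7, 22 and 23 against parental (guide 1, guide 2, guides 1 and 2, mean), 5, 20 and 2 between edited lines, and 400, 567, 375 and 69 against the empty vector. PYCARD (adjusted p = 0.0955 in guide 1), ICAM1 (0.0611) and LUM (0.0877) lost their calls with the block. IL1RN, IL33 and the interleukin-36 genes are limited by depth, with at most 107 counts.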
